A study of Homo sapiens and Mus musculus with 41 samples.

Results

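Complement C3 and 7 further genes of the alternative complement pathway were described in 41 RNA-seq libraries of cultured tumour cells from 4 models. The 8 members were the rows of the deposited tables whose symbol is C3, CFB, CFD, CFI, CFP, C3AR1, C5 or C5AR1, with case ignored for the mouse. All 8 had a row of the 23368 rows in each human table, and 7 had one of the 23337 rows in the mouse table, where no row is named C5. Each model was a line that stably expressed GFP. The 2 lung models were LLC, the mouse Lewis carcinoma, and PC9, an adenocarcinoma of human lung. The 2 breast models were MDA-MB-231, which lacks oestrogen receptor, progesterone receptor and HER2, and HCC1954, an invasive ductal carcinoma with raised HER2, both human. Lep was the leptomeningeal metastatic derivative, BrM a brain metastatic derivative, Int an intermediate stage derivative and Par the parental line. LLC had 3, 3, 2 and 3 libraries of Lep, BrM, Int and Par. PC9 and MDA-MB-231 had 2, 3, 2 and 3 each, and HCC1954 had 3, 2, 2 and 3. Per the labels, tumour cells were washed out of the leptomeninges of mice, grown in medium with 10% FBS until the culture was uniformly GFP-positive, and then split 3 times ahead of RNA extraction. The values describe cultured cells, and how many founding cells each derivative line had is not stated. The labels describe Par replicates as technical and Int and Lep replicates as partly technical, without saying which, and do not describe BrM replicates. The p-values therefore measure the spread between these libraries.

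The alternative pathway is the arm of complement that needs no antibody. C3 is split into C3a and C3b, C3b binds factor B (CFB), factor D (CFD) cuts the bound factor B, and the resulting enzyme splits more C3. Properdin (CFP) holds that enzyme together, and factor I (CFI) cuts C3b to end the loop. Further along, C5 is split, and the small fragments C3a and C5a act on the receptors C3AR1 and C5AR1. Liver makes most plasma complement, while epithelial and myeloid cells also make it locally. C3 is the gene for which the study of these libraries is known, so its direction here is a description of those libraries and no independent evidence.

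Values are normalized counts, which are reads per gene that the authors scaled with a single factor for each library. They are comparable between the libraries of a model but not between models, whose tables were normalized separately. Within each model, limma was run on log2(value + 1) over all its libraries in 1 fit, for genes that reached 10 normalized counts in 2 or more of them. A call needed an adjusted p below 0.05 (Benjamini-Hochberg, over all genes tested) and a log2 fold change of at least 1 in size. Log2 fold changes are first-named over second-named group, ± standard error, and understate the change of low values. By that filter 7 members were tested in HCC1954 (not C3AR1), 7 in MDA-MB-231 (not C5AR1), 5 in PC9 (C3, CFB, CFD, C5 and C5AR1) and 4 in LLC (C3, Cfb, Cfp and C3ar1).

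The range of recovered reads per library was 18029707 to 67939274 for LLC, 16792027 to 38432963 for PC9, 23508951 to 110830546 for MDA-MB-231 and 25330801 to 67367833 for HCC1954. Depth went with stage. Int libraries had at least 67198962 reads in LLC, 96283309 in MDA-MB-231 and 67210373 in HCC1954. The other stages had at most 52876610, 67354695 and 33871657 there. In PC9, Lep and Int had at least 28657904 and BrM and Par at most 23781567. BrM libraries also had fewer reads than Par in LLC, and fewer than Lep and Par in MDA-MB-231. Lep and Par overlapped in depth in LLC, MDA-MB-231 and HCC1954. In pairs of stages whose depths did not overlap, an effect of depth cannot be told apart from stage. An effect of sequencing run was not tested. A count of 0 allows up to 3 reads by counting error alone. In each tumour line at least 5 of 6 tumour markers (EPCAM, KRT8, KRT18, ERBB2, EGFR and VIM) had a mean of at least 10 in every stage. Reads of mouse host cells that align to human genes were not measured, so the marker lists are given for LLC, where tumour and host share a species. In LLC the macrophage marker list summed to between 171 and 519 in Lep, 201 and 223 in BrM, 5261 and 5657 in Int and 229.7 and 270.3 in Par. Cd68, a lysosomal protein gene, made up most of the Int sum, with 5585 and 5159 there. The macrophage gene Mrc1 was higher in all 3 Lep libraries, at 63.9, 166 and 31.6, against at most 17.0 in the other LLC libraries. Itgam was at 7.67, 11.5 and 0 in Lep and at most 1.42 elsewhere, while Cx3cr1 was highest in Int, at 19.2 and 67.0, with 12.8, 5.11 and 3.51 in Lep. Lep replicate 2 had 48.6 of the macrophage receptor gene Csf1r, against at most 1.28 in the other 10 LLC libraries, and 21.7 of Ptprc (CD45), against at most 5.11. In LLC BrM the defining markers Aif1, Itgam, Emr1, Tyrobp and Laptm5 were at 0, and they were at most 2.38 in Par and 4.93 in Int. Each was highest in Lep replicate 2, at 1.28, 11.5, 10.2, 5.11 and 29.4 in that order. In the other Lep libraries they were at most 7.67. The meningeal fibroblast and pericyte list summed to 1577 to 3323 in LLC Lep, 891 to 1183 in BrM, 3547 to 6064 in Int and 4299 to 4654 in Par. Its member Pdgfrb, a pericyte receptor gene, was at 394, 1228 and 429 in Lep and between 47.8 and 141 in the other LLC libraries, while Lum was at most 1.28 in Lep and at least 148 elsewhere. Choroid plexus markers summed to at most 166 in LLC Lep, 52.4 in BrM and 153 in Par and to between 531 and 742 in Int, with the defining Ttr and Clic6 at 0 in all 4 LLC stages. Aqp1 alone made up most of that Int sum, with 728 and 514 there.

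C3 was highest in Lep in HCC1954 and MDA-MB-231 by the group mean, highest in Int in PC9, and highest in Lep and Int without separation between them in LLC. Par was the lowest stage in MDA-MB-231 by the group mean, Int in HCC1954 and BrM in PC9 and LLC. In the 2 lung models the brain derivative therefore lay below its parental line, while Lep lay above Par in all 4 models with no overlap of libraries.

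**Figure D1:**
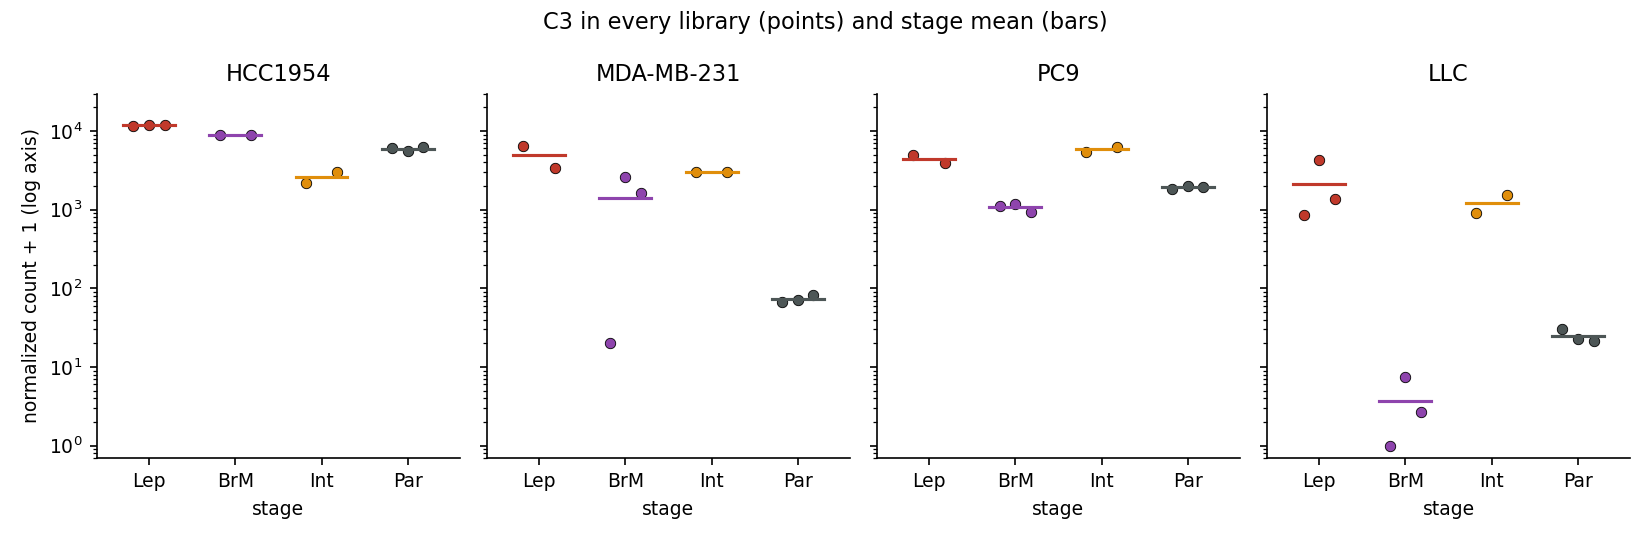
C3 in every library of the 4 models, as normalized count + 1 on a log axis, with points for libraries, bars for stage means and stages in the order Lep, BrM, Int and Par. Lep libraries lie above Par libraries in each panel, BrM lies between 0 and 6.55 normalized counts in LLC, and 1 BrM library of MDA-MB-231 at 19.3 lies far below the other 2.

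In HCC1954, C3 had 11417, 11949.8 and 11921 normalized counts in Lep. The BrM libraries had 8796 and 8932, the Int libraries 2158 and 3001, and the Par libraries 6041, 5611 and 6275. The 4 stages did not overlap, in the order Lep, BrM, Par and Int. In bulk RNA, as here, a lower value from fewer expressing cells and one from less RNA per cell cannot be told apart. C3 in Lep exceeded Par by a log2 fold change of 0.98 ± 0.09 (limma adjusted p = 1.3e-07), just short of the fold threshold, and by 1.01 without Par replicate 3, which passes it. C3 rose in Lep with Int (2.21 ± 0.10, adjusted p = 5.1e-10) and in BrM with Int (1.80 ± 0.10, 1.1e-08). Int with Par was the 1 comparison in which C3 fell (-1.23 ± 0.10, 6.1e-08), and without Int replicate 1 it was -0.99 and no longer called. The other pairs had p-values below the threshold and folds short of it, with 0.41 ± 0.10 in Lep with BrM (0.0019) and 0.57 ± 0.10 in BrM with Par (1e-04).

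In MDA-MB-231, C3 had 6506 and 3425 normalized counts in Lep. The BrM libraries had 19.3, 2595 and 1621, the Int libraries 2977 and 3057, and the Par libraries 65.5, 69.9 and 80.9. Lep, Int and Par did not overlap one another, whereas BrM replicate 1, with 9 C3 reads, lay below every Par library and the other BrM libraries lay far above them. No C3 comparison was called in limma with all libraries; 2 were at an unadjusted p below 0.05, 1 was called in edgeR and 3 in DESeq2. The log2 fold change of Lep with Par was 6.02 ± 1.66 (adjusted p = 0.26, 95% interval 2.28 to 9.76), and its adjusted p over the alternatives ran from 0.00025 without BrM replicate 1 to 0.54. Int with Par was at 5.37 ± 1.66 (0.063, interval 1.64 to 9.11) and was called with edgeR (5.43, 0.03), with DESeq2 (5.39, 0.00062), with those stages alone (0.0037), without BrM replicate 1 (0.00042) and without Par replicate 1 (5.31, 0.047), with the largest adjusted p over its alternatives at 0.33. BrM with Par was at 2.60 ± 1.48 (0.43) with all libraries and at 4.82 (0.0015) without BrM replicate 1, and its adjusted p reached 0.84 over the alternatives. Lep with BrM was at 3.42 ± 1.66 (0.26) and 1.20 without that library, and BrM with Int at -2.78 ± 1.66 (0.2) and -0.56. Lep with Int differed by 0.65 ± 1.82 (0.86, interval -3.45 to 4.74), an interval that holds differences in either direction.

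In PC9, C3 had 5023 and 3915 normalized counts in Lep. The BrM libraries had 1106, 1194 and 933, the Int libraries 5446 and 6221, and the Par libraries 1858, 2017 and 1956. The stages did not overlap, in the order Int, Lep, Par and BrM. C3 rose in Lep with Par (1.19 ± 0.11, limma adjusted p = 1.6e-06), in Lep with BrM (2.05 ± 0.11, 1.3e-08) and in Int with Par (1.58 ± 0.11, 1.8e-07). It fell in BrM with Int (-2.44 ± 0.11, 4.6e-09). Lep with Int, at -0.39 ± 0.12 (0.12), and BrM with Par, at -0.86 ± 0.10 (2.7e-05), were not called.

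In LLC, C3 had 861, 4236 and 1352 normalized counts in Lep. The BrM libraries had 0, 6.55 and 1.65, that is 0, 3 and 1 reads, the Int libraries 897 and 1558, and the Par libraries 29.2, 21.9 and 20.2. Lep and Int overlapped, and both lay above Par, which lay above BrM. C3 rose in Lep with Par (6.12 ± 0.67, limma adjusted p = 2.4e-05) and in Int with Par (5.59 ± 0.74, 0.00034). Without Lep replicate 2, which had the most C3, Lep with Par was 5.46 and still called. Mrc1 and Pdgfrb were also higher in every Lep library than in any other LLC library. Other markers were lower in Lep than in Par, among them Dcn (216, 178 and 330 against 1490, 1666 and 1947). Pdgfra was at 921, 1865 and 1366 in Lep against 2719, 2270 and 2115 in Par. Aqp1 and Cd68 were highest in Int. The part of host RNA in these results was not tested. BrM fell below Par (-3.17 ± 0.67, 0.0018), below Int (-8.77 ± 0.74, 4.6e-06) and below Lep, where Lep with BrM was 9.29 ± 0.67 (1.1e-06). With 4 BrM reads these folds depend on the added 1 (with 5 added, Lep with BrM was 7.88), so ratios of pooled reads are given with exact intervals for counting error alone. The pooled ratio was 0.089 for BrM with Par (95% interval 0.0237 to 0.236), 0.00176 for BrM with Int (0.000481 to 0.00452) and 917 for Lep with BrM (358 to 3366). Lep with Int was 0.53 ± 0.74 (0.59, interval -1.09 to 2.14), and -0.13 (0.9) without Lep replicate 2.

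**Figure D2:**
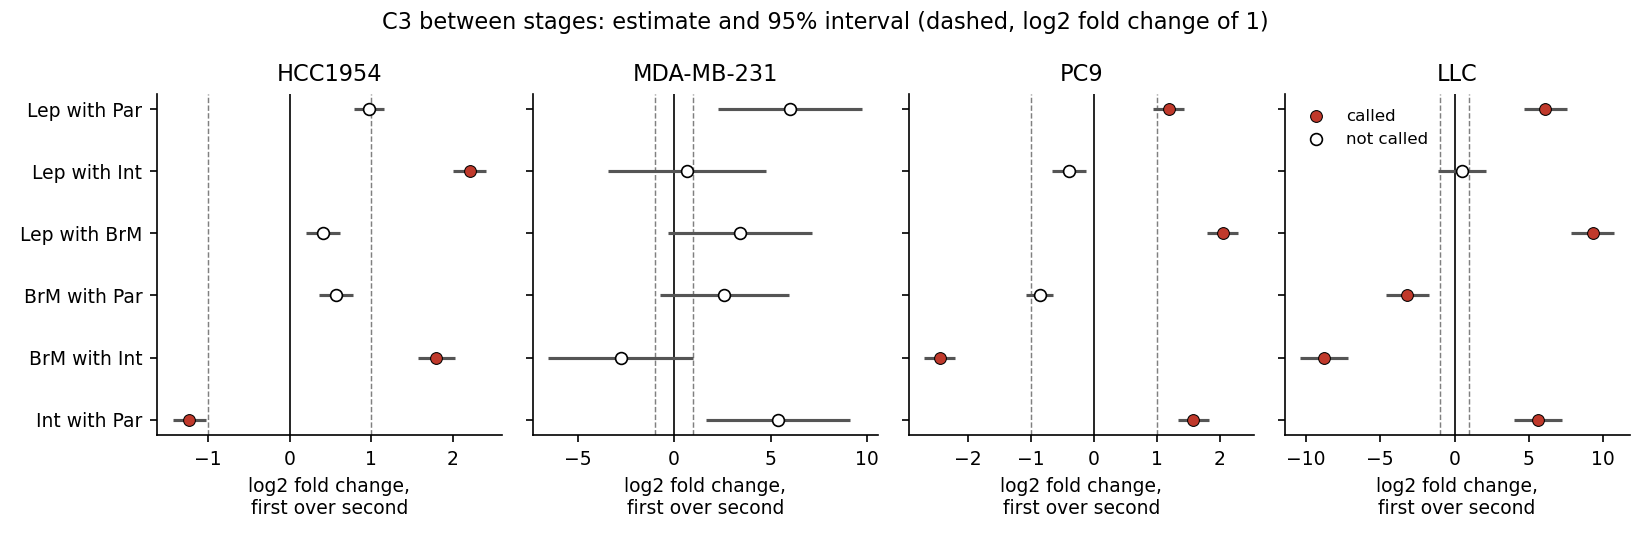
Log2 fold change of C3 in the 6 comparisons of each model, first-named over second-named stage, with 95% intervals from limma; filled points were called, dashed lines mark a log2 fold change of 1, and each panel has its own axis. The intervals of MDA-MB-231 are several units wide, and Lep with Par is to the right of 0 in each panel.

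The count of members called per comparison is set beside the share of all genes tested that were called in either direction. HCC1954 had 3 of 7 members called in Lep with Par (all genes, 26.8%), 2 in Lep with Int (15.1%), 2 in Lep with BrM (17.1%), 6 in BrM with Par (23.6%), 2 in BrM with Int (11.1%) and 5 in Int with Par (21.2%). MDA-MB-231 had 4 of 7 called in Int with Par (all genes, 6.94%) and 3 in BrM with Int (23.6%). Its other comparisons had 0 called in limma, at background shares of 0.0662% in Lep with Par, 0.159% in Lep with Int, 0.827% in Lep with BrM and 0.45% in BrM with Par. At an unadjusted p below 0.05 there were 2, 4, 2 and 1 members in those comparisons, with 0 called in edgeR and 1 in DESeq2 in each. PC9 had 4 of 5 called in Lep with Par (all genes, 15.1%), 3 in Lep with BrM (18.6%), 3 in BrM with Int (17.2%) and 4 in Int with Par (13.9%). Lep with Int and BrM with Par had 0 called there in limma, edgeR and DESeq2, with 3 and 4 members at an unadjusted p below 0.05 and background shares of 0.608% and 7.72%. LLC had 2 of 4 called in Lep with Par (all genes, 20.3%), 2 in Lep with Int (22.5%), 3 in Lep with BrM (18%), and 1 each in BrM with Par (23.2%), BrM with Int (27.9%) and Int with Par (11.5%). The counts include CFI in MDA-MB-231 and CFP in HCC1954. CFI would not have passed the filter without Int, nor CFP without BrM, the stages in which they were called higher. Members were chosen knowing earlier results, so these counts are descriptions.

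CFB, the partner of C3b in the amplifying enzyme, and CFD, the protease that activates it, rose and fell in the same 4 PC9 comparisons as C3. In HCC1954 the sign of CFB was that of C3 in 4 of 6 comparisons, and differed in Int with Par (0.89 for CFB and -1.23 for C3) and in Lep with BrM (-0.18 and 0.41). RefSeq promoters of both, from 250 bases before to 50 after the transcription start in GRCh38.p14, are shown because CFB followed C3 more closely than any other gene tested in PC9. C3 is not among the matched promoters. Capitals mark matches on either strand, counted from the start site, and the searched patterns were the kappa-B consensus, C/EBP (TTNNGNAA), AP-1 (TGANTCA), STAT (TTCNNNGAA) and ISRE (GAAA, 2 further bases, GAAA). The CFB window lies at chr6:31945845-31946144 on the plus strand, and the CFD window at chr19:859414-859713 on the plus strand.
CFB: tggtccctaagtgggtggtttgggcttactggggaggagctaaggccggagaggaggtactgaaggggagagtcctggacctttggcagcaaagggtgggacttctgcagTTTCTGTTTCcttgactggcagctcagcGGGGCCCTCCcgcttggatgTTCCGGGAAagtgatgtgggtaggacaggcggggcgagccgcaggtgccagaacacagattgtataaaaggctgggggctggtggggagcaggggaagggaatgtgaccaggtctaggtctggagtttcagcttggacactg
CFD: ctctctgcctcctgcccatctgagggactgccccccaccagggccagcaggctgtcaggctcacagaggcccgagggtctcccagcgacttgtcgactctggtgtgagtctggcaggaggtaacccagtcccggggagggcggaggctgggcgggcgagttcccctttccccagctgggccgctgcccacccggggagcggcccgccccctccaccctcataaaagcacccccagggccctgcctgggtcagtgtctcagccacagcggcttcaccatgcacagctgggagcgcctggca
The CFB window held TTTCTGTTTC (ISRE) at -140 to -131, GGGGCCCTCC (kappa-B) at -112 to -103 and TTCCGGGAA (STAT) at -92 to -84, which do not overlap. None of these letters was in the CFD window. Of 35116 RefSeq promoters of this length, 11.3% held the kappa-B consensus, 36.8% C/EBP, 7.71% AP-1, 7.66% STAT and 3.57% ISRE. A match is a run of letters, not a bound site.

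CFB, which supplies the catalytic part of that enzyme, had 5348 and 4638 normalized counts in Lep, 912, 973 and 832 in BrM, 6331 and 6899.6 in Int, and 1544, 1705 and 1579 in Par of PC9. The stages did not overlap and had the same order as C3. CFB rose in Lep with Par (1.63 ± 0.08, limma adjusted p = 1.7e-08), Lep with BrM (2.46 ± 0.08, 3.4e-10) and Int with Par (2.04 ± 0.08, 6.7e-09), and fell in BrM with Int (-2.87 ± 0.08, 1.3e-10). Over the 10 PC9 libraries Pearson's r of CFB with C3 on the log2 scale was 0.995, the highest of all genes tested. The libraries share stages, so r mainly measures stage differences. Per kilobase of the longest coding transcript in GENCODE 29, Lep averaged 1745 normalized counts of CFB and 849 of C3. C3 is the longer of these genes, and PC9 Lep libraries were relatively low in long transcripts (Spearman's rho with length -0.49 and -0.39). Length may therefore enter this comparison.

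In HCC1954, CFB had 15065, 16402 and 15148 normalized counts in Lep, 16825 and 18322 in BrM, 10176 and 12714 in Int, and 6312, 5939 and 6119 in Par. Every derivative lay above Par, and the order of the derivatives was BrM, Lep and Int. CFB rose in Lep with Par (1.34 ± 0.07, limma adjusted p = 3e-10) and in BrM with Par (1.52 ± 0.07, 4e-10). Int was thus the lowest stage for C3 and above Par for CFB, and r between the genes was 0.43. Per kilobase, Lep averaged 5429 normalized counts of CFB and 2235 of C3.

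MDA-MB-231 had 2003 and 1443 normalized counts of CFB in Lep, 457, 1242 and 893 in BrM, 2917 and 5979.5 in Int, and 472, 686 and 996 in Par. Int lay above all other libraries and BrM overlapped Par. CFB rose in Int with Par (2.60 ± 0.48, limma adjusted p = 0.019) and fell in BrM with Int (-2.39 ± 0.48, 0.011). Both calls were lost without either Int library (adjusted p from 0.06 to 0.24), and the first also without Par replicate 2 (0.073).

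In LLC, Cfb had 219.8, 409 and 257 normalized counts in Lep, 151, 127 and 147 in BrM, 124 and 131 in Int, and 217, 252 and 225 in Par. Lep lay above BrM and Int and overlapped Par. Cfb rose in Lep with Int (1.15 ± 0.25, limma adjusted p = 0.0026) and in Lep with BrM (1.01 ± 0.22, 0.0034). Without Lep replicate 2 the values were 0.89 and 0.75 and neither was called. Lep with BrM was also lost with a pseudocount of 5 (0.99), with quantile normalization (0.90) and without BrM replicate 2 (0.93). The macrophage gene Mrc1 and the pericyte gene Pdgfrb were highest in Lep, while the sums of their lists were not. The part of host RNA was not tested. The Int libraries, high in C3, lay below Par in Cfb, and its r with C3 was 0.39 over 11 libraries.

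**Figure D3:**
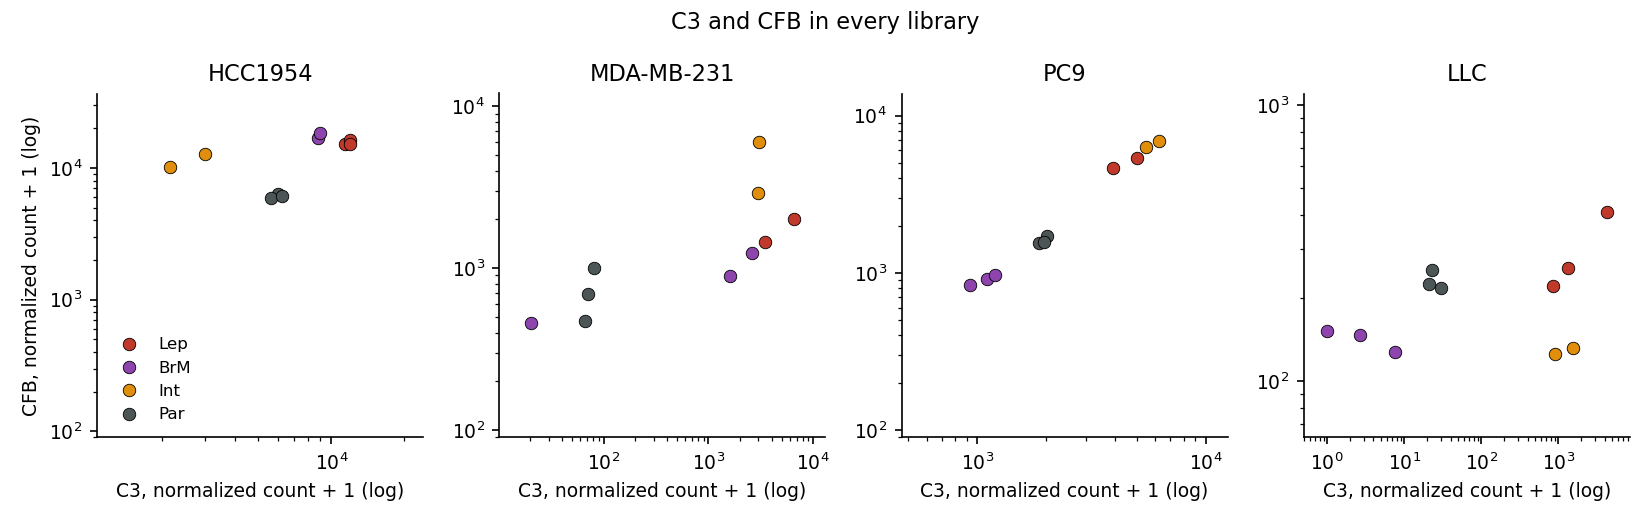
CFB against C3 in every library, both as normalized count + 1 on log axes, with colours for stages. In PC9 the libraries fall along 1 line, in HCC1954 the Int libraries have low C3 and more CFB than Par, and in LLC Int libraries have high C3 with 124 and 131 normalized counts of Cfb.

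CFD, the protease that cuts factor B, rose in Lep of PC9 and fell in Lep of HCC1954, each against Par. In PC9 it had 1258 and 2090.4 normalized counts in Lep, 118, 163 and 141 in BrM, 947 and 1166 in Int, and 266, 221 and 216 in Par. Lep and Int lay above Par, and BrM below it. CFD rose in Lep with Par (2.79 ± 0.19, limma adjusted p = 1.2e-07), Lep with BrM (3.53 ± 0.19, 1.2e-08) and Int with Par (2.17 ± 0.19, 9.4e-07), and fell in BrM with Int (-2.91 ± 0.19, 6.2e-08). In PC9 the stages also differed in how library values varied with transcript length. Spearman's rho of a library's deviation with length was -0.49 and -0.39 in Lep, 0.42, 0.38 and 0.28 in BrM, -0.50 and -0.45 in Int, and 0.35, 0.37 and 0.38 in Par. CFD is short, at 1201 bases, and C3 long, at 5263. With length and GC correction Lep with Par was 2.14 for CFD, 1.54 for CFB and 1.40 for C3, each still called. Trends of that size were also present in MDA-MB-231, with rho at 0.25 and 0.00 in Lep, -0.09, -0.50 and -0.47 in BrM, 0.48 and 0.46 in Int, and 0.50, -0.36 and -0.48 in Par. The MDA-MB-231 calls of CFB, CFI, CFP and C3AR1 given here were kept with length and GC correction.

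In HCC1954, CFD had 139.5, 154 and 129 normalized counts in Lep, 101 and 89.7 in BrM, 132 in each Int library, and 992, 918 and 945 in Par. All derivatives lay far below Par. CFD fell in Lep with Par (-2.75 ± 0.09, limma adjusted p = 5.7e-12), BrM with Par (-3.31 ± 0.10, 5.1e-12) and Int with Par (-2.84 ± 0.10, 2.8e-11). MDA-MB-231 had 42.2 and 263 in Lep, 114, 222 and 211 in BrM, 64.3 and 75.8 in Int, and 47.4, 155 and 199 in Par, and none of its CFD comparisons was called. In LLC, Cfd ran from 0 to 9.0 normalized counts, with 0 in 3 of 11 libraries, and was not tested.

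CFP encodes properdin, which steadies the enzyme. In MDA-MB-231 it had 149 and 48.6 normalized counts in Lep, 36.5, 30.8 and 25.2 in BrM, 369 and 376 in Int, and 48.4, 85.5 and 37.2 in Par. Int lay above all other libraries. CFP rose in Int with Par (2.77 ± 0.49, limma adjusted p = 0.017) and fell in BrM with Int (-3.57 ± 0.49, 0.0051), calls that were both lost without either Int library (0.058 to 0.22). HCC1954 had few reads of CFP, with 4.69, 4.32 and 6.25 in Lep, 16.8 and 17.7 in BrM, 11.6 and 4.20 in Int, and 6.58, 4.74 and 6.59 in Par. CFP was called higher in BrM with Par (1.40 ± 0.39, 0.0052) and in BrM with Int (1.18 ± 0.43, 0.03), and lower in Lep with BrM (-1.60 ± 0.39, 0.0026), of which the last was kept in all alternatives. Without BrM, CFP would not have passed the filter in HCC1954, so these calls are not independent of it. BrM with Par was lost with DESeq2 (0.056). BrM with Int was lost in 9 alternatives: with DESeq2 (0.19), those stages alone, a pseudocount of 5 (log2 fold change 0.85), quantile normalization (0.85), length and GC correction with and without the block, and without BrM replicate 1, BrM replicate 2 or Int replicate 2 (0.54). LLC had 285, 309 and 137 of Cfp in Lep, 223, 253 and 214 in BrM, 167 and 220.0 in Int, and 122, 107 and 120.1 in Par. Every derivative library lay above Par, and limma called no comparison. Lep with Par (0.98 ± 0.28, limma adjusted p = 0.011) and BrM with Par (0.98 ± 0.28, 0.0097) were just short of the fold threshold. In Lep with Par of LLC, edgeR and DESeq2 each called 3 members, against 2 with limma. In PC9, CFP ran from 1.31 to 10.1 and was not tested.

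CFI, the protease that inactivates C3b, was called in HCC1954 and MDA-MB-231. HCC1954 had 1121, 1129.9 and 1029 normalized counts in Lep, 2009 and 2146 in BrM, 2799 and 2650.0 in Int, and 1089, 918 and 966 in Par. Int and BrM lay above Lep and Par, which overlapped, so the stage lowest in C3 was highest in CFI (r = -0.59 over 10 libraries). CFI rose in BrM with Par (1.07 ± 0.07, limma adjusted p = 6.3e-09) and in Int with Par (1.46 ± 0.07, 3.7e-10), and fell in Lep with Int (-1.32 ± 0.07, 2.2e-09). In MDA-MB-231 the Int libraries had 43.7 and 29.7, against at most 20.3 elsewhere: 20.3 and 2.99 in Lep, 4.29, 1.54 and 1.58 in BrM, and 6.05, 3.29 and 4.85 in Par. It rose in Int with Par (2.72 ± 0.71, 0.044) and fell in BrM with Int (-3.51 ± 0.71, 0.011), where BrM had 4 reads and the pooled ratio was 0.0615 (exact interval 0.0166 to 0.161, counting error alone). Without Int, the stage in which it was called higher, CFI would not have passed the filter, so these calls are not independent of it. Without either Int library both calls were lost (0.09 to 0.29). Int with Par was lost in 9 alternatives in all, the others being no filter, quantile normalization, each BrM library left out, and Par replicate 2 or 3 left out (0.051 to 0.14). CFI was at 0 in 6 of 10 libraries in PC9, with at most 4.10, and at 0 in 6 of 11 in LLC, with at most 4.76, and was not tested there.

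C5, the substrate that starts the lytic and C5a branches, differed between stages in HCC1954. It had 158, 142 and 146 normalized counts in Lep, 137 and 138 in BrM, 88.5 and 88.6 in Int, and 289.6, 299 and 248 in Par. The derivatives lay below Par, Int lowest. C5 fell in Int with Par (-1.64 ± 0.11, limma adjusted p = 1.9e-08) and in BrM with Par (-1.01 ± 0.11, 2.2e-06), the second lost with quantile normalization (-0.77), a pseudocount of 5 (-0.99) and without Par replicate 1 or 2. C5 had 157 and 287 in Lep, 223, 146 and 148 in BrM, 291 and 255 in Int, and 261, 136 and 181 in Par of MDA-MB-231. PC9 had 170.2 and 98.6 in Lep, 158, 137 and 136 in BrM, 107 and 138 in Int, and 121, 85.5 and 105 in Par. The stages overlapped in most pairs in both lines and no comparison was called.

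C3AR1, the receptor of C3a, was tested in MDA-MB-231 and LLC. LLC had 277, 343 and 194 normalized counts of C3ar1 in Lep, 88.8, 67.7 and 87.3 in BrM, 118 and 142 in Int, and 138, 135 and 112 in Par. Lep lay above every other library and BrM below. C3ar1 rose in Lep with BrM (1.70 ± 0.24, limma adjusted p = 0.00019), Lep with Par (1.04 ± 0.24, 0.0034) and Lep with Int (1.02 ± 0.26, 0.0073). Without Lep replicate 2 the values were 1.51, 0.85 and 0.84, of which the first was called. Lep with Par was also lost without Par replicate 3 (0.95), and Lep with Int without Lep replicate 1 (0.99) or Int replicate 1 (0.89). Macrophages are known to express C3AR1, and the part of the macrophage markers in Lep was not tested. In MDA-MB-231, C3AR1 had 28.4 and 13.4 in Lep, 32.2, 40.1 and 22.1 in BrM, 44.6 and 48.6 in Int, and 13.1, 18.1 and 8.09 in Par. It rose in Int with Par (1.82 ± 0.46, 0.041), a call that most alternatives ended, among them leaving out any 1 BrM or Int library. C3AR1 was at most 5.27 in HCC1954 and 2.89 in PC9.

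C5AR1, the receptor of C5a, moved in opposite directions in HCC1954 and PC9. HCC1954 had 23.5, 29.2 and 30.0 normalized counts in Lep, 14.2 and 5.22 in BrM, 9.48 and 20.5 in Int, and 72.4, 74.7 and 76.4 in Par. All derivatives lay below Par. C5AR1 fell in Lep with Par (-1.41 ± 0.33, limma adjusted p = 0.0013), BrM with Par (-2.95 ± 0.36, 5.7e-06) and Int with Par (-2.33 ± 0.36, 5.9e-05), and rose in Lep with BrM (1.54 ± 0.36, 0.002), which without BrM replicate 2 was 0.90 and not called. PC9 had 51.3 and 39.3 in Lep, 22.4, 27.6 and 18.3 in BrM, 39.6 and 41.0 in Int, and 18.4, 17.1 and 23.0 in Par. It rose in Lep with Par (1.18 ± 0.25, 0.0013) and Int with Par (1.02 ± 0.25, 0.0034), of which the first was lost without Lep replicate 1 (0.99) and with block, length and GC correction (0.99). The second was lost in 7 alternatives, with values from 0.83 to 1.00. C5AR1 was at most 13.4 in MDA-MB-231 and 3.83 in LLC.

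**Figure D4:**
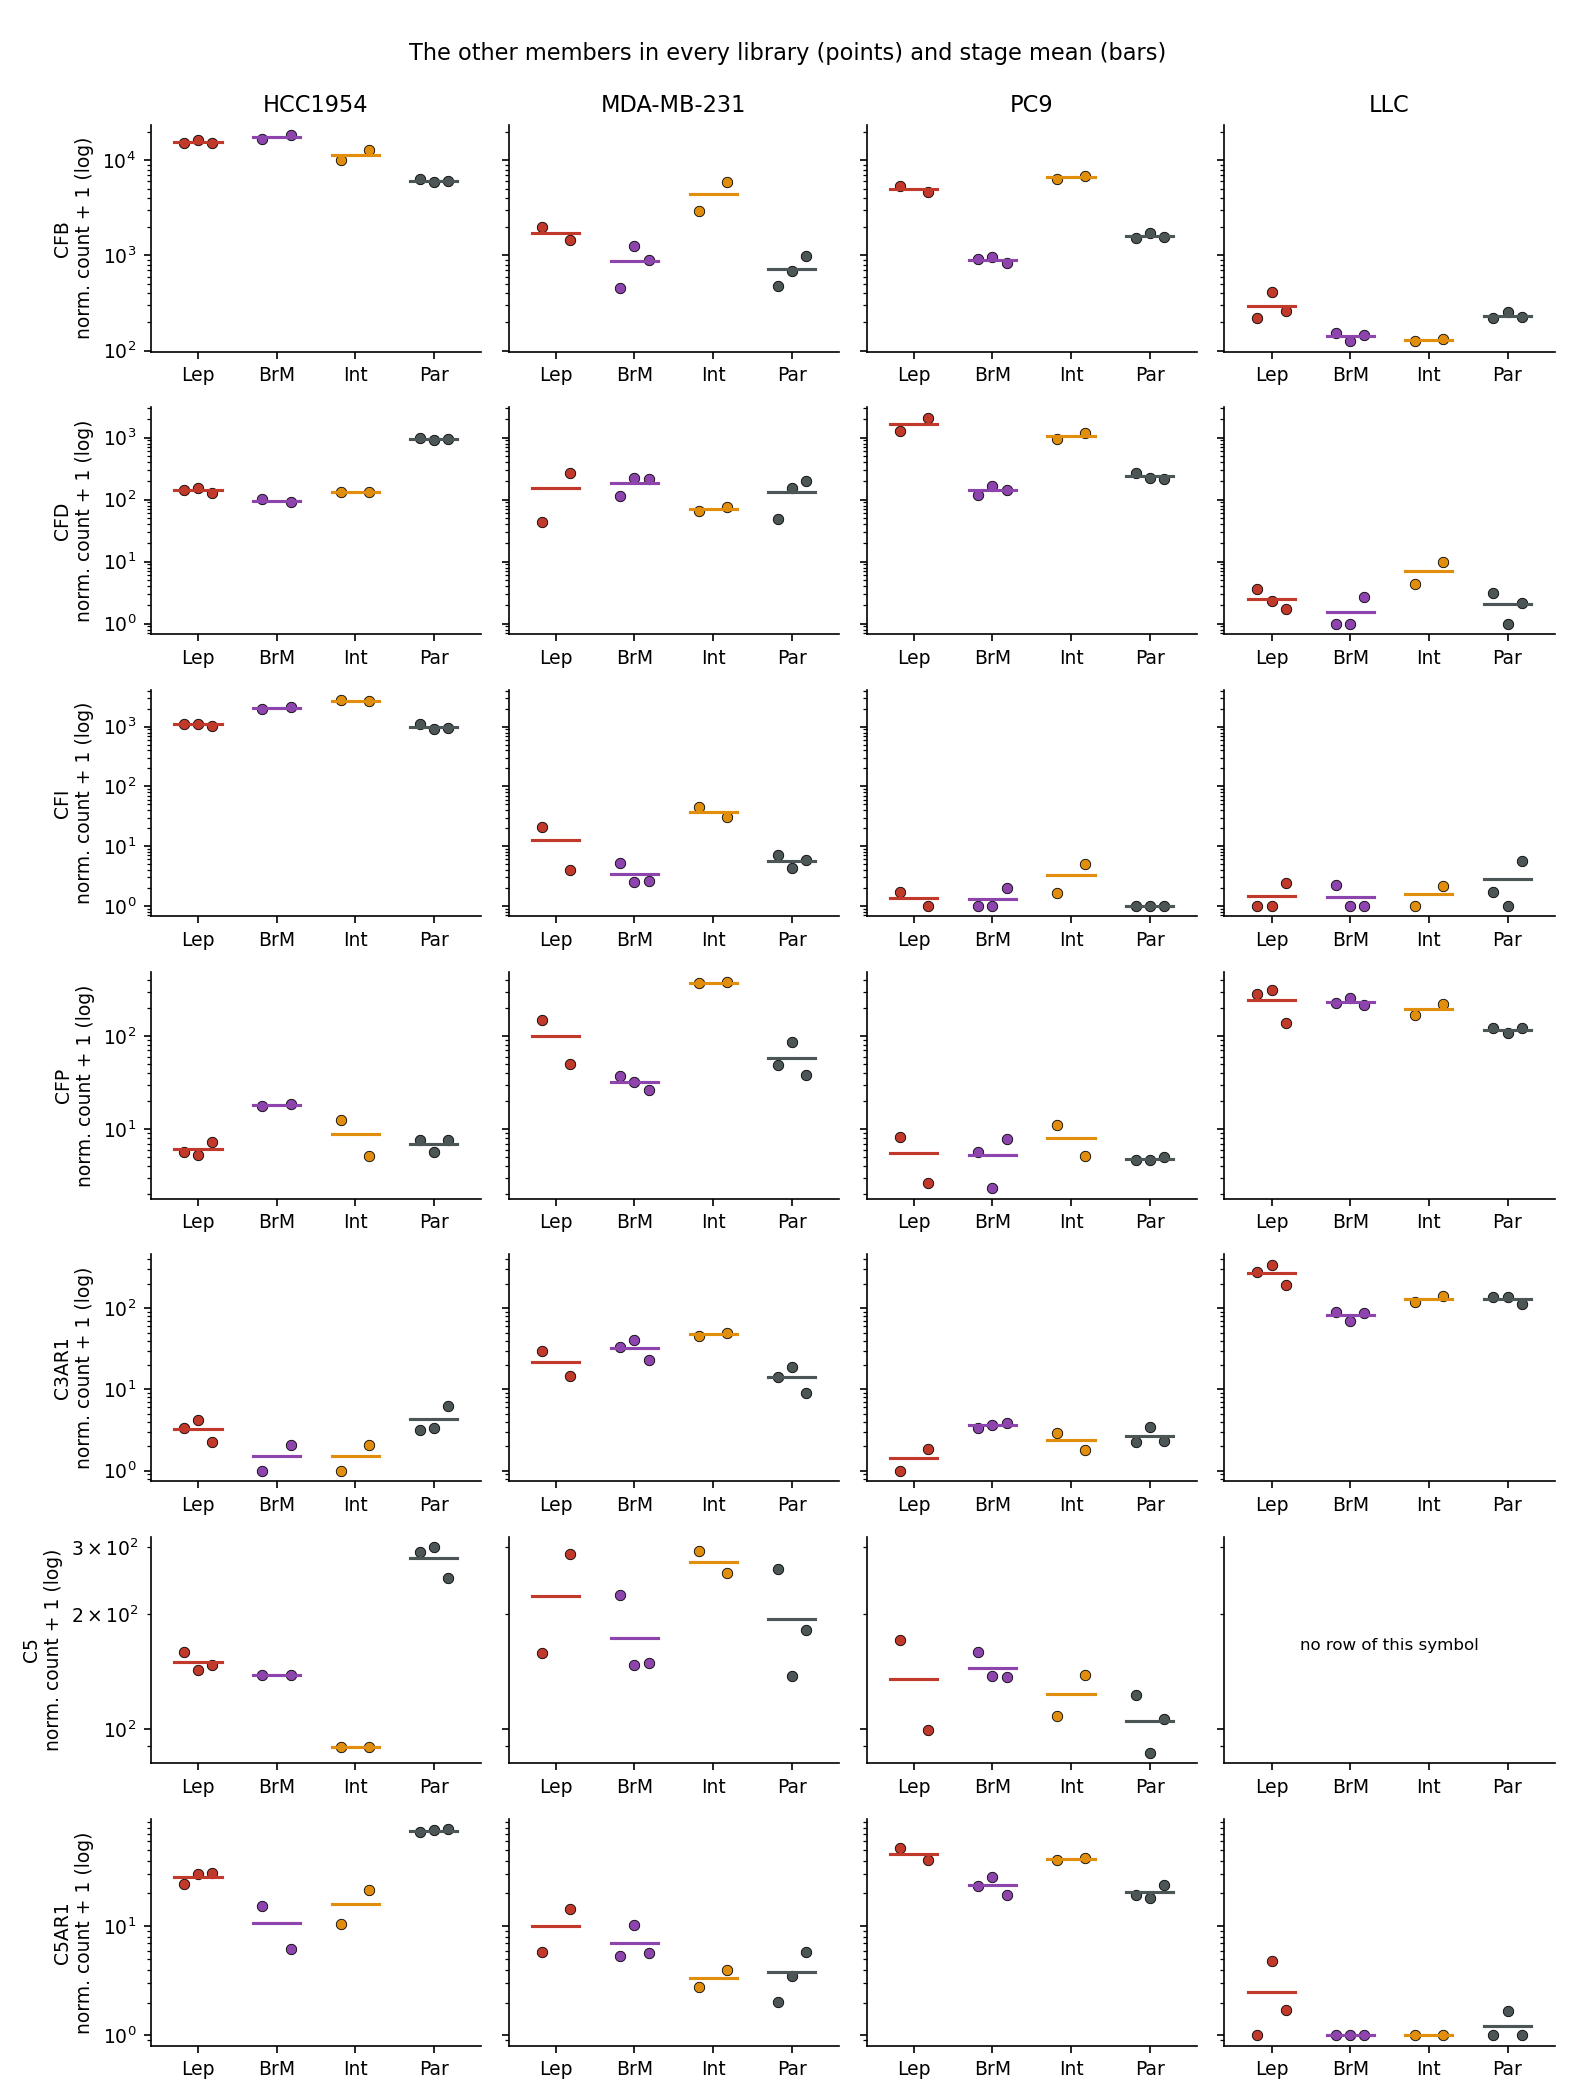
The 7 members other than C3 in every library, as normalized count + 1 on log axes that a row of panels shares, with points for libraries, bars for stage means and stages in the order Lep, BrM, Int and Par. CFD lies below Par in the HCC1954 derivatives and above it in PC9 Lep and Int, and CFP, CFI and CFB are highest in Int in MDA-MB-231.

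A wider list held 43 rows of other complement genes in each table, of which 22 were tested in HCC1954, 15 in MDA-MB-231, 16 in PC9 and 18 in LLC. In Lep with Par, 11 rose and 4 fell in HCC1954 (median log2 fold change 1.09, and -0.02 over all genes, of which 26.8% were called). The MDA-MB-231 median was 0.31 (-0.01 over all genes). In PC9 3 rose and 1 fell (0.16, and 0.02 over all genes, 15.1% called), and in LLC 1 rose and 7 fell (-0.99, and 0.00 over all genes, 20.3% called). So C3 lay above Par in Lep of LLC, where most called genes of the list were lower. In BrM with Par of LLC, in which C3 fell, 9 fell and no other gene of the list was called (-1.23, and -0.05 over all genes, 23.2% called).

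By role, 7 of 16 regulators and receptors rose in HCC1954 Lep with Par and 4 fell, 3 of 4 genes of the classical and lectin pathways rose, and 1 of 2 terminal genes rose, where 26.8% of all genes were called. CLU, clusterin, which blocks the terminal complex, averaged 331 ± 16.4 in Lep and 3998 ± 90.8 in Par (SD, n = 3 each; -3.59 ± 0.06, limma adjusted p = 8.2e-15). THBD, thrombomodulin, was at 0 in Lep against 28.3 ± 6.87 in Par, at least 8.06-fold lower with 3 reads per library as the floor. C9, the pore-forming protein and the terminal gene counted above, had 12.3 ± 2.11 in Lep and 0 in Par, at least 3.43-fold higher. As THBD was at 0 in Lep and C9 at 0 in Par, each passed the filter only through other stages. These calls are therefore not independent of the filter.

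PC9 Lep with Par had 3 of 10 regulators and receptors higher and 1 lower, where 15.1% of all genes were called. ITGAM, a subunit of the C3b fragment receptor CR3, averaged 143 ± 24.3 in Lep (n = 2) and 10.3 ± 7.29 in Par (n = 3; 3.87 ± 0.44, limma adjusted p = 6.7e-06), and its partner ITGB2 363 ± 163 and 123 ± 11.4 (1.48 ± 0.22, 5.7e-05). SERPING1, the C1 inhibitor, had 22.8 ± 13.4 and 7.42 ± 5.48 (1.59 ± 0.54, 0.02). THBD had 22.1 ± 11.2 and 123 ± 3.81 (-2.51 ± 0.24, 1.3e-06). ITGAM is also on the macrophage marker list, and host reads that align to human genes were not measured in PC9. In LLC, Clu had 2863 ± 1884 in Lep and 18075 ± 345 in Par (n = 3 each; -2.97 ± 0.45, limma adjusted p = 0.00023), C8g 5.07 ± 6.69 and 27.0 ± 7.58 (-2.91 ± 0.74, 0.0065), and C1s, a classical protease, 432 ± 172 and 2309.7 ± 86.0 (-2.49 ± 0.23, 6.6e-06).

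Genes most like C3 were ranked by Pearson's r with C3 over log2(value + 1) in the 10 libraries of each human model and the 11 of LLC. The libraries share stages, so r is a description of the stage pattern. In HCC1954 they were FAM160B2, ORAI2, CHPF and GIPR (r = 0.98 to 0.99). In MDA-MB-231 they were CSF3, the granulocyte colony-stimulating factor, CTSS, the protease cathepsin S, IL8, a neutrophil-attracting chemokine, and LOC100507547 (0.96 to 0.98). CSF3 averaged 12179.9 normalized counts in Lep, 2223 in BrM, 5891 in Int and 78.4 in Par. In PC9 they were CFB, NOL3, ECH1 and SULT1A1, the last with near-identical relatives (0.99 to 1.00), and in LLC Nsun6, Coro2a, Abtb2 and Rbp2 (0.96 to 0.97). Of 9809 genes tested in all 4 models, SLPI, a secreted protease inhibitor, had the highest smallest r, at 0.90 in HCC1954, 0.76 in MDA-MB-231, 0.93 in PC9 and 0.95 in LLC. It was followed by GBP2 (smallest r 0.69), the interleukin gene IL1A (0.65), CSF1, the macrophage growth factor (0.65), and FHAD1 (0.62).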

How the data were processed

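RNA from 41 libraries of 4 models had been sequenced by the authors, per the labels, with the TruSeq RNA v2 kit, paired-end, with longer reads for MDA-MB-231 than for the other models. The submitters' processing notes name FastQC 0.11.3, HTSeq 0.5.4, DESeq2 and the builds hg19/GRCh37 and mm10/GRCm38; no aligner is named in those sources. The signal values the authors deposited, 1 table per model, are reads per gene scaled by a single factor for each library, since each value was a whole multiple of the library's smallest (tolerance 0.01), and 100.0% of values gave whole reads in every library. Genes of the annotation overlap C3 (GPR108), CFB (C2), CFI and CFP on the same strand, so shared reads depend on how the authors counted them.

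Genes at 10 or more normalized counts in 2 or more libraries of the model were tested with limma 3.58.1 (trend, R 4.3.3) on log2(value + 1), all 4 stages of a model in 1 fit, two-sided, adjusted over all genes tested by Benjamini-Hochberg, with a log2 threshold of 1. The 6 pairs of stages were compared in each model, 24 in all. Named beside the members were the 4 genes most like C3 per model with a mean of at least 100 in a stage, 5 over all models, and up to 4 called other complement genes per Lep with Par. Some genes that this rule names are not reported here. Alternatives were edgeR 4.0.16 and DESeq2 1.42.0 on recovered reads, a pseudocount of 5, no filter, 2 groups only, quantile normalization, a replicate block, length and GC correction with GENCODE 29 (with and without the block), and leaving out each library. Scripts were tested on simulated data. Same-numbered BrM and Par libraries of MDA-MB-231 deviated together (r = 0.50, 0.26 and 0.23). Replicate 1 of both stages also differed from the other replicates in its trend with transcript length (rho 0.50 in Par and -0.09 in BrM). The titles give only replicate numbers, so whether the block is a pairing is not known. The block changed no call of C3. Promoters came from RefSeq (GRCh38.p14), in which 7 of the 8 members matched. The members and lists were chosen with earlier results of these data known.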

Additional observations from a re-analysis of the deposited data

Results flagged for a closer look

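In several comparisons the libraries of a gene were completely separated in opposite directions in different models. No difference between models was tested, since the tables were normalized separately. For C3, the log2 fold change of Lep with Int was 2.21 in HCC1954 and 0.65 in MDA-MB-231, but -0.39 in PC9. BrM with Par was 0.57 in HCC1954, against -0.86 in PC9 and -3.17 in LLC. BrM with Int was 1.80 in HCC1954, against -2.78 in MDA-MB-231, -2.44 in PC9 and -8.77 in LLC. Int with Par was 5.37 in MDA-MB-231, 1.58 in PC9 and 5.59 in LLC, against -1.23 in HCC1954. HCC1954 is therefore the model that differs from the rest in each C3 comparison that involves Int with Par or BrM with Int.

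CFD had 2.79 in PC9 and -2.75 in HCC1954 in Lep with Par, and 2.17 and -2.84 in Int with Par. C5AR1 had 1.18 in PC9 and -1.41 in HCC1954 in Lep with Par, and 1.02 and -2.33 in Int with Par. CFP in BrM with Int was 1.18 in HCC1954 and -3.57 in MDA-MB-231, the first on at most 22 reads per library. Groups of 4 or more libraries did not occur, so single libraries were not screened for distance from their group.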

How the results depend on the processing

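The 63 fold changes of C3 and of called members were recomputed under 1186 alternatives. In 1108 they kept their direction and their side of the threshold, in 66 the call was lost, in 11 it was gained, and in 1 the sign turned: C3 in Lep with Int of LLC was -0.13 without Lep replicate 2 and at most 1.02 without another library. In 40 fold changes no alternative changed the call (17 of 23 in HCC1954, 3 of 13 in MDA-MB-231, 14 of 16 in PC9 and 6 of 11 in LLC). When 1 library was left out, C3 in Lep with Par was 5.46 to 6.61 in LLC, 1.01 to 1.37 in PC9, 5.56 to 6.48 in MDA-MB-231 and 0.93 to 1.01 in HCC1954. In MDA-MB-231 it was called with DESeq2 (6.11) and with those stages alone (6.02). With the replicate block it was 6.12 in LLC, 1.14 in PC9, 6.53 in MDA-MB-231 and 0.98 in HCC1954, on the same side of the threshold. The sample titles give only replicate numbers. In MDA-MB-231 the deviations of same-numbered Lep and Par libraries correlated for replicate 1 (r = 0.37) and not for replicate 2 (-0.02). The block ended the call of C3AR1 in Int with Par of MDA-MB-231 (1.56) and changed no other call named here; in Lep with BrM it moved the genes called to 62 from 125.

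On the recovered reads edgeR called 4203 genes in HCC1954 Lep with Par, 2780 in LLC, 2212 in PC9 and 8 in MDA-MB-231, against 4165, 2734, 2191 and 10 with limma. The genes called in MDA-MB-231 ranged most: over settings other than leaving out a library, 4 to 274 in Lep with Par (main 10), 0 to 470 in Lep with Int (24), 62 to 740 in Lep with BrM (125), 5 to 471 in BrM with Par (68), 1717 to 4364 in BrM with Int (3563) and 374 to 2170 in Int with Par (1049). Leaving out 1 library there gave 0 to 4144 genes in BrM with Int and 0 to 3845 in Int with Par, both 0 without Int replicate 2, 3 to 112 in Lep with Par, 2 to 372 in Lep with Int, 6 to 700 in Lep with BrM and 2 to 423 in BrM with Par. In LLC, Int with Par had 1548 and 983 without Int replicate 2. Lep with Int of PC9 had 26 genes without Int replicate 2 and 368 without Lep replicate 1. In PC9, Lep with Int had 88 and 1 with those stages alone, and Int with Par 2019 and 1337 with block, length and GC correction. Quantile normalization moved the share of calls that are higher by over 10 points in 8 comparisons and edgeR in 2. With quantile normalization it was 55.7% against 66.0% in HCC1954 BrM with Int, 54.8% against 40.8% in BrM with Par, 54.4% against 31.1% in Int with Par and 58.0% against 77.1% in Lep with Int. In LLC it was 50.2% against 36.0% in BrM with Int, 50.5% against 35.0% in BrM with Par and 48.5% against 37.6% in Lep with Int, and in MDA-MB-231 30.0% against 16.7% in Lep with Int. With edgeR it was 50.0% against 30.0% in MDA-MB-231 Lep with Par and 54.0% against 37.5% in PC9 Lep with Int. Length and GC correction was not run for LLC, for which no mouse gene lengths were used here. Low counts limit C3 in LLC BrM, CFI in MDA-MB-231 BrM and CFP in HCC1954.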
